A study of Mus musculus with 4 samples.

Results

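A set of 9 genes used to tell injured, dedifferentiated and mature tubular cells apart were read in TKPTS cells, a mouse renal proximal tubular line that the labels write as TKPT. They were chosen by symbol, among the 22063 genes listed, as markers of injury (*Havcr1* and *Lcn2*), of dedifferentiation and failed repair (*Sox9*, *Vcam1*, *Cd44* and *Cd24a*) and of renal and proximal tubular identity (*Pax2*, *Pax8* and *Hnf4a*). All 9 symbols were found once, and 7 had enough counts to be among the 11727 genes tested. The study asked how knocking down *Itgb6*, the β6 subunit of integrin αvβ6, changes gene expression in these cells after hypoxia and reoxygenation. All 4 libraries came from cells kept 24 h at 1% O2 and 5% CO2 and then 12 h in normal oxygen. These made up 2 groups of 2, si-NC (replicates 2 and 3, titled Scrambled, genotype WT) and si-*Itgb6* (replicates 1 and 3, genotype *Itgb6* knockdown). The samples are transient transfections of 1 immortal line, the labels do not say whether replicates were separate cultures, and p-values then measure only the spread between these samples. No library of cells kept in normal oxygen throughout was analysed here, so a level is not a response to hypoxia.

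Tubular epithelium answers injury by switching on genes that healthy tubules hardly express. *Havcr1* encodes KIM-1, a surface receptor through which injured proximal tubular cells take up dead cells, and *Lcn2* encodes NGAL, a secreted carrier of iron-binding siderophores, and both are used as injury markers. Cells that repair pass through a dedifferentiated state in which the transcription factor *Sox9* returns, and cells that fail to repair are known to keep the adhesion molecule *Vcam1*. *Pax2* and *Pax8* encode paired-box factors that set the renal lineage during development, whereas *Hnf4a* encodes the nuclear receptor that proximal tubular cells need to mature.

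Stretches of 250 bases upstream of a RefSeq transcription start (GRCm38.p6) were read for the 6 markers that the RefSeq promoter table holds, and *Sox9*, *Vcam1* and *Cd24a* were not in it. Those of 4 are shown, namely the injury pair that moved in opposite directions and the most and the least abundant of the lineage factors. Those of *Pax2*, also nearly silent, and of *Cd44* are not shown. Capitals mark matches to TTNNGNAA on either strand, a C/EBP motif that was picked after *Cebpb*, which encodes C/EBPβ, was seen to be lower where *Lcn2* was lower.
Lcn2 promoter: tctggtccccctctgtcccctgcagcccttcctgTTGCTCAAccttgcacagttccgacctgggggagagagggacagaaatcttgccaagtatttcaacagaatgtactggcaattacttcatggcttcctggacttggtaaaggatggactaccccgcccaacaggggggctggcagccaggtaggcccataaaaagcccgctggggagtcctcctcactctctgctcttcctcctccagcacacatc
Havcr1 promoter: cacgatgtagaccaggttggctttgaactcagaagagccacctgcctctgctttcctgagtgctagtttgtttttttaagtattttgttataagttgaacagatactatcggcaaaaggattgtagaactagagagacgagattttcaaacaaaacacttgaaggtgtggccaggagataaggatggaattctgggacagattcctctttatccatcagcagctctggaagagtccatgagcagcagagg
Pax8 promoter: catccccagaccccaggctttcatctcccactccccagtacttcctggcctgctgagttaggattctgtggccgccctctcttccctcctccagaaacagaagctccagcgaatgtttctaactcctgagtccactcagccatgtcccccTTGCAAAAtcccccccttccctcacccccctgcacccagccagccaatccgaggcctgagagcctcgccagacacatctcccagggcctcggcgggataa
Hnf4a promoter: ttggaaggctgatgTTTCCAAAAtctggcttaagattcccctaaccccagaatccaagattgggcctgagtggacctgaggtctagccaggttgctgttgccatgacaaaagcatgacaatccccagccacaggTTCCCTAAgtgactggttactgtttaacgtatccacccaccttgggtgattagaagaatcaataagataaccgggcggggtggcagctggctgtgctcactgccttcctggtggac
The *Lcn2* stretch lies at chr2:32387740-32387989 on the minus strand, with 1 match that begins 216 bases before the start. The *Havcr1* stretch, at chr11:46739973-46740222 on the plus strand, belongs to the first of 3 RefSeq starts and holds no match. The stretch of the second *Havcr1* start (chr11:46750261-46750510), not printed, holds 1 at 46 bases before that start, and that of the third holds none, so *Lcn2* and *Havcr1* do not differ in having a match. *Pax8* has 1 match at 100 bases before its start, in chr2:24475600-24475849 on the minus strand. *Hnf4a* has 3, of which 2 overlap each other, in chr2:163506607-163506856 on the plus strand, the first of 2 RefSeq starts, the second of which has none. The motif is common, being in 36.8% of 32851 promoter stretches of this length. TGANTCA (AP-1), GGAATG (TEAD), TATAAA, CAAAGTCCA (HNF4), ACGTG (the HIF core) and the NF-kB consensus, searched on both strands, were in none of these 4 stretches, although ACGTG is in those of the other two *Havcr1* starts, and were in 6.75%, 12.6%, 12.4%, 0.384%, 16.6% and 3.90% of all promoter stretches. The letters describe the windows and show no binding.

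Estimated counts totalled 15435074 to 17220281 per library, so that 3 counts, taken as the floor of detection, came to 0.174 to 0.194 CPM, the count scaled to library size. Replicates differed by more than sampling noise, with a chi-square per gene of 3.15 between the si-NC and 3.998 between the si-*Itgb6* libraries. *Itgb6* itself did not check the labels. Its counts were 285 and 284 in the si-NC libraries and 279 and 260 in the si-*Itgb6* ones, with a log2 fold change of -0.01, a 95% confidence interval from -0.27 to 0.26 and an adjusted p of 0.991 (edgeR quasi-likelihood test, Benjamini-Hochberg adjustment). Directions are therefore those of the libraries labelled si-*Itgb6*. The paper states that the siRNA was checked by qPCR and western blot, and reports less integrin αvβ6 protein in hypoxic cells that received it. It does not say whether the sequenced samples were among those checked. The library labelled si-*Itgb6* replicate 1 stood apart by trace transcripts of other tissues, with 53 counts of *Alb* against 0 or 1 in the others, and its part in the changes was not tested; values without it are given. Epithelial markers were abundant, and *Cdh1*, *Epcam*, *Krt8* and *Krt18* had mean levels of 90.2, 208, 373 and 601 FPKM (the authors' values, which are scaled to library size and gene length and may be compared between genes). *Krt8* was lower in the si-*Itgb6* libraries, at -0.20 on the log2 scale (edgeR adjusted p = 0.00881; 0.322 without si-NC replicate 2, 0.144 without si-NC replicate 3 and 0.200 with GC and length trends removed). *Epcam* and *Cdh1* had -0.15 and -0.14 (0.0783 and 0.117), with both si-*Itgb6* libraries below both si-NC libraries, and *Krt18* had -0.03 with libraries that overlapped. The part of these epithelial markers in the changes was not tested.

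**Figure D1:**
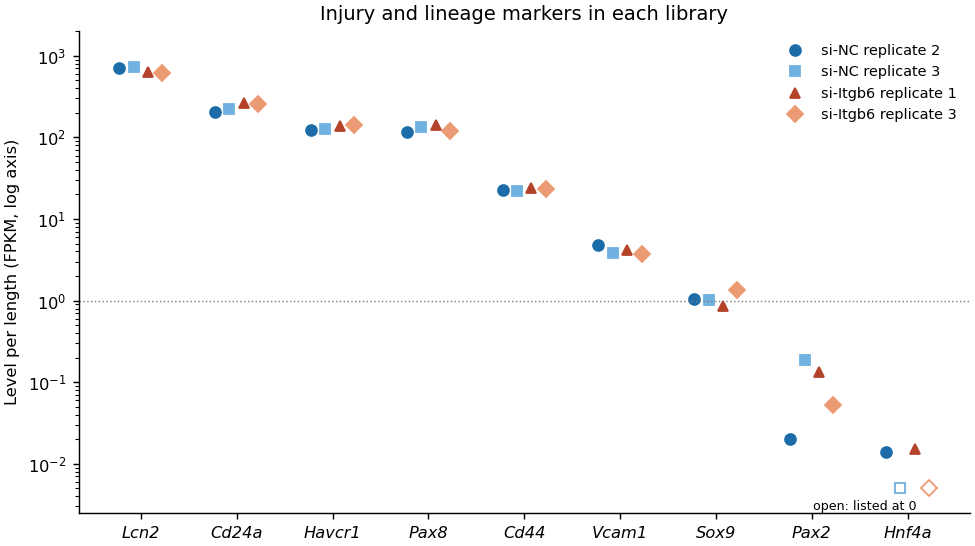
Level of each of the 9 markers in each of the 4 libraries, in FPKM on a log axis, with open points for a gene listed at 0. The order runs from Lcn2 at 618 to 726 FPKM down to Hnf4a at 0 to 0.015 FPKM, and only the ranges of the neighbours Havcr1 and Pax8 overlap.

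The cells expressed both injury markers strongly, kept 1 renal lineage factor at a high level, and had next to no *Hnf4a*. On the FPKM scale *Lcn2* led with 672 ± 51.2 (SD, n = 4 libraries), followed by *Cd24a* with 237 ± 25.9, *Havcr1* with 132 ± 9.45 and *Pax8* with 128 ± 12.1. By mean FPKM *Lcn2* exceeded 99.2% of the detected genes, *Cd24a* 97.9%, and *Havcr1* and *Pax8* 96.0% each. *Cd44* was lower at 23.0 ± 1.07 FPKM, and *Vcam1* and *Sox9* were low, at 4.16 ± 0.475 and 1.06 ± 0.197 FPKM. Among the 7 tested markers, each neighbour in this order was set apart by ranges that did not overlap over the 4 libraries, by 1.80-fold or more, except *Havcr1* and *Pax8*, which differed by 1.03-fold and overlapped. Dividing CPM by the length of the longest transcript gave the same order of the 9 genes.

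The lineage factors were thus split. *Pax8* (ENSMUSG00000026976, chr2:24420560-24475599 in GENCODE vM21, build GRCm38) had 4682 and 5884 counts in the si-NC libraries and 5518 and 5112 in the si-*Itgb6* libraries. *Pax2* (ENSMUSG00000004231, chr19:44756045-44837871), its relative in kidney development, had 1, 10, 9 and 2 counts in the same order, or 0.020 to 0.189 FPKM. *Hnf4a* (ENSMUSG00000017950, chr2:163506808-163572910) had 1, 0, 1 and 0 counts, under the floor in every library. *Pax2* was over the floor only in si-NC replicate 3 and si-*Itgb6* replicate 1, and neither of these 2 genes passed the filter on low counts, so neither was tested or is given a fold change.

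**Figure D2:**
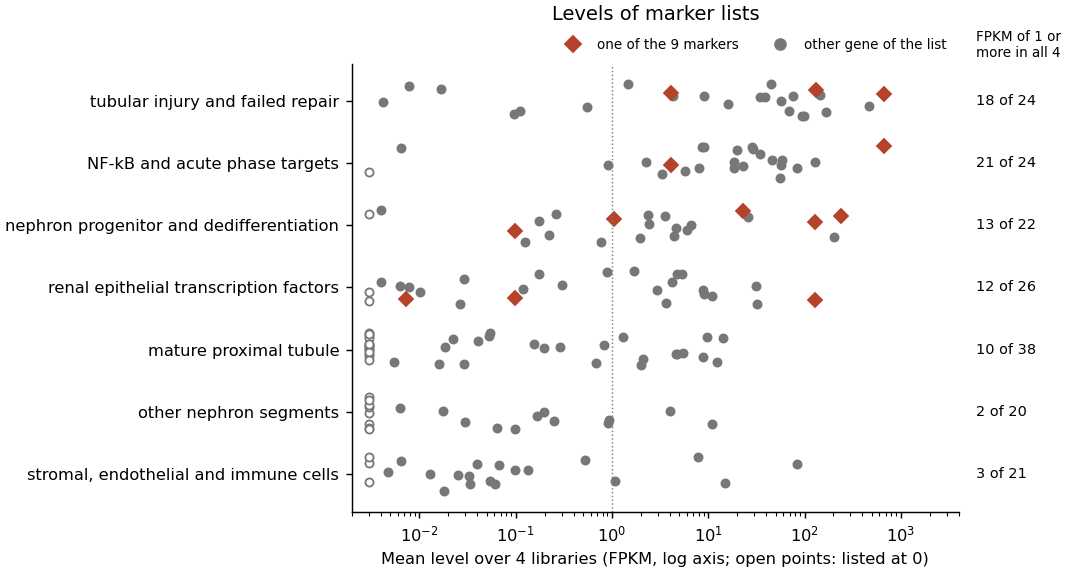
Mean level over the 4 libraries (FPKM, log axis) of every gene of 7 marker lists, with diamonds for the 9 markers and open points for genes listed at 0; the right column counts genes with at least 1 FPKM in all 4 libraries. Injury genes reach this level in 18 of 24 cases and mature proximal tubule genes in 10 of 38.

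Lists of genes of the same states mostly stood on the same sides. Of 24 injury and failed repair genes, 18 had at least 1 FPKM in all 4 libraries, against 45.2% of all genes listed. The 24 include 3 of the 9 markers (*Havcr1*, *Lcn2* and *Vcam1*). The most abundant after *Lcn2* were *Spp1* (osteopontin) at 470 FPKM and the cell cycle inhibitor *Cdkn1a* at 168 FPKM. Among those that missed 1 FPKM was *Vim* (vimentin), named after its value was seen, at a mean of 0.546 FPKM. Of 38 mature proximal tubule genes, 10 reached that level and 15 were listed at 0, among them the phosphate carrier *Slc34a1*, the glucose carrier *Slc5a2* and the organic anion carriers *Slc22a6* and *Slc22a8*. The most abundant of that list were *Mme* (neprilysin) at 14.4 FPKM, *Aqp1* (aquaporin 1) at 12.2 FPKM and *Dab2*, an endocytic adaptor, at 9.78 FPKM. The endocytic receptor *Lrp2*, a defining marker of the mature proximal tubule, had 7, 4, 2 and 17 counts. The labelled cell type was thus marked by the renal factor *Pax8*, while most of its mature transporters were at or near 0.

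Among 22 progenitor and dedifferentiation genes, 13 had at least 1 FPKM in all 4 libraries, led by *Cd24a*, *Prom1* (CD133) and *Pax8*, while *Wt1* was listed at 0. Renal epithelial transcription factors did so for 12 of 26 genes. Markers of other nephron segments reached 1 FPKM in all 4 libraries in 2 of 20 cases, and 8, including *Umod* and *Aqp2*, were listed at 0. Markers of stromal, endothelial and immune cells did so in 3 of 21 cases (*Cd68*, *Flt1* and *Csf1r*), with *Acta2*, *Emcn* and *Cd3e* at 0. The summed level of that list was 109 and 116 FPKM in si-NC and 110.1 and 103 FPKM in si-*Itgb6*, most of it *Cd68*, and its part in the changes was not tested.

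**Figure D3:**
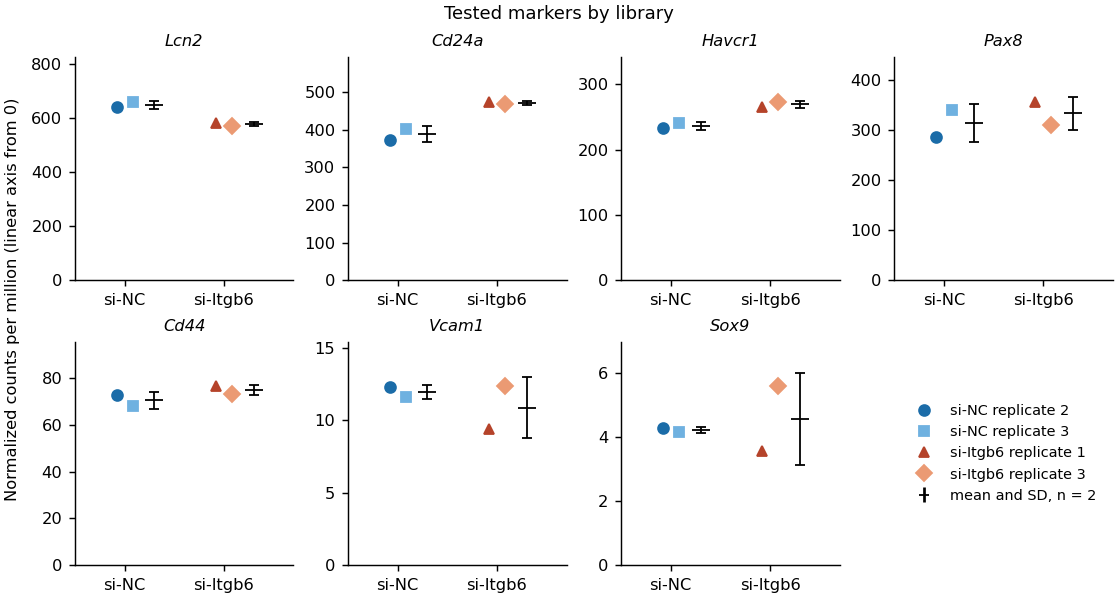
CPM of the 7 tested markers in each library, with the mean and SD (n = 2) of each group beside the points and axes that start at 0. The groups are apart for Lcn2, Cd24a, Havcr1 and, narrowly, Cd44, and overlap for Pax8, Vcam1 and Sox9.

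Between the groups 3 of the 7 tested markers changed, all by small amounts, and the injury markers went in opposite directions. *Lcn2* was 1.13-fold lower under the si-*Itgb6* label, and *Havcr1* and *Cd24a* were higher, by 1.14-fold and 1.21-fold. Across all 11727 genes tested, 4.62% passed the same threshold (adjusted p under 0.05, edgeR quasi-likelihood test), 2.11% as higher and 2.52% as lower. The 3 that passed are the most abundant markers, and small changes pass more readily in abundant genes. The markers were also chosen with earlier results of these data known, so the shares are no test of the set. The values of 4 of the 7 markers did not overlap between the groups, where 49.2% of all genes tested did not (23.8% higher and 25.4% lower), so that count sets the markers little apart from other genes. The study names looser thresholds, a fold change over 1.2 with an unadjusted p under 0.05, under which *Cd24a* was called alone, against 9.57% of all genes tested (4.37% higher and 5.2% lower).

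*Lcn2* (ENSMUSG00000026822, chr2:32384633-32388252), the most abundant marker, had 10454 and 11432 counts in si-NC and 9045 and 9439 counts in si-*Itgb6*. Both si-NC libraries were above both si-*Itgb6* libraries once set to library size, at 652 ± 14.8 CPM against 579 ± 7.81 CPM (SD, n = 2 each). On the log2 scale it fell by 0.17, with a standard error of 0.05, a 95% confidence interval from -0.27 to -0.07 and an edgeR adjusted p of 0.0322. In bulk RNA, fewer cells that express a gene and less RNA per cell cannot be told apart. Without si-NC replicate 2 the adjusted p was 0.343 at -0.19, without si-NC replicate 3 it was 0.312 at -0.14, and with trends of GC content and length removed it was 0.122 at -0.14.

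*Havcr1* (ENSMUSG00000040405, chr11:46735080-46779578) had 3791 and 4148 counts in si-NC and 4115 and 4501 in si-*Itgb6*. Its si-*Itgb6* libraries were both higher, with 270 ± 5.33 CPM against 236 ± 5.45 CPM (SD, n = 2 each). The log2 fold change of 0.19 had a standard error of 0.05, an interval from 0.08 to 0.30 and an edgeR adjusted p of 0.0358. This call was lost without si-NC replicate 2 (0.17, adjusted p = 0.498), si-NC replicate 3 (0.22, 0.152) or si-*Itgb6* replicate 3 (0.17, 0.0885), and with GC and length trends removed (0.12, 0.239). Of its 75-base windows, 2.30% also occur in *Gm4926* or *Timd2*, so a small part of its reads may be uncertain.

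Within each library, *Lcn2* had 2.76 counts for each *Havcr1* count in both si-NC libraries and 2.20 and 2.10 in si-*Itgb6* replicates 1 and 3. The ratio is free of library scaling, and the groups did not overlap. *Pax8* counts per *Havcr1* count were 1.24 and 1.42 in si-NC and 1.34 and 1.14 in si-*Itgb6*, and overlapped. These ratios were picked after the values had been seen, and with 2 against 2 libraries the smallest two-sided p of an exact permutation test is 0.333.

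Of the 3 surface proteins linked to dedifferentiation or failed repair, *Cd24a* alone passed. *Cd24a* (ENSMUSG00000047139, chr10:43578284-43584265), a small mucin-like protein anchored in the membrane, had 6095 and 6969 counts in si-NC and 7347 and 7704 in si-*Itgb6*. It stood at 389 ± 21.0 CPM in si-NC and 471 ± 4.76 CPM in si-*Itgb6* (SD, n = 2 each), with every si-*Itgb6* library above every si-NC library. The log2 fold change was 0.28, the standard error 0.05, the interval 0.17 to 0.38 and the edgeR adjusted p 0.000964. Of the 3 calls this alone held with GC and length trends removed (0.20, adjusted p = 0.0348), and it was lost without si-NC replicate 2 (0.22, 0.284). Reads may be shared for 1.55% of its windows with *Gm6212*.

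*Cd44* (ENSMUSG00000005087, chr2:102811141-102901665), the receptor for hyaluronan, had 1192 and 1176 counts in si-NC and 1186 and 1209 in si-*Itgb6*. By CPM the si-*Itgb6* libraries were slightly above, at 75.03 ± 2.26 against 70.6 ± 3.54 (SD, n = 2 each), with a log2 fold change of 0.09, an interval from -0.07 to 0.24 and an edgeR adjusted p of 0.587. *Vcam1* (ENSMUSG00000027962, chr3:116109949-116129688) had 200 and 200 counts in si-NC and 145 and 203 in si-*Itgb6*. In CPM its si-*Itgb6* libraries lay on both sides of si-NC, and the log2 fold change of -0.13 had an interval from -0.47 to 0.20 (edgeR adjusted p = 0.724). Its FPKM implied lengths from 2242 to 3220 bases in different libraries, so its FPKM and its counts do not rank the libraries alike.

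Neither transcription factor that was tested passed. *Sox9* (ENSMUSG00000000567, chr11:112782224-112787760) had 70 and 72 counts in si-NC and 55 and 92 in si-*Itgb6*, which lay on both sides of si-NC. At this depth its interval ran from -0.41 to 0.64 around a log2 fold change of 0.12 (edgeR adjusted p = 0.860). *Pax8* had 314 ± 37.9 CPM in si-NC and 334 ± 32.5 CPM in si-*Itgb6* (SD, n = 2 each), and its log2 fold change of 0.09 had an interval from -0.05 to 0.22 and an edgeR adjusted p of 0.516. Exons of *Pax8* and *Vcam1* overlap *Gm13415* and *Gm43109* on the opposite strand, whose reads these unstranded libraries cannot tell apart. Leaving out 1 library turned the sign of *Pax8* (-0.032 when si-NC replicate 2 was left out and -0.017 when si-*Itgb6* replicate 1 was), *Sox9* (-0.25 without si-*Itgb6* replicate 3) and *Vcam1* (0.048 without si-*Itgb6* replicate 1).

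**Figure D4:**
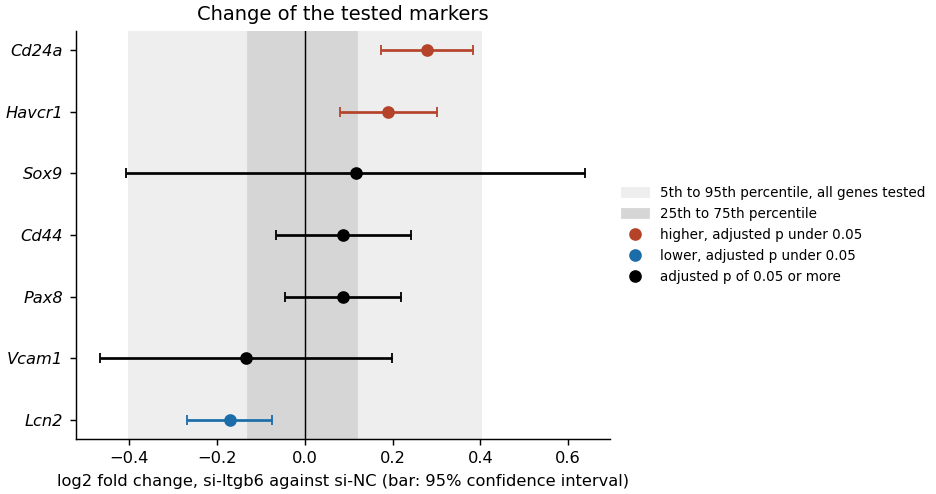
log2 fold change of the 7 tested markers (si-Itgb6 against si-NC) with 95% confidence intervals, over bands that hold the middle of all genes tested. All 7 values lie between -0.17 and 0.28, inside the band from the 5th (-0.40) to the 95th (0.40) percentile of all genes tested.

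The 3 changes lay outside the 25th (-0.13) to 75th (0.12) percentile of all genes tested and inside the 5th to 95th. The absolute log2 fold change exceeded that of 62.5% of all genes tested for *Lcn2*, 66.6% for *Havcr1* and 80.6% for *Cd24a*. Without si-*Itgb6* replicate 1, the library with traces of *Alb*, the same 3 markers passed, at -0.19, 0.21 and 0.27. Without si-NC replicate 2, all 3 calls were lost, as were most calls in the whole table. The values were then -0.19 for *Lcn2*, 0.17 for *Havcr1* and 0.22 for *Cd24a*.

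**Figure D5:**
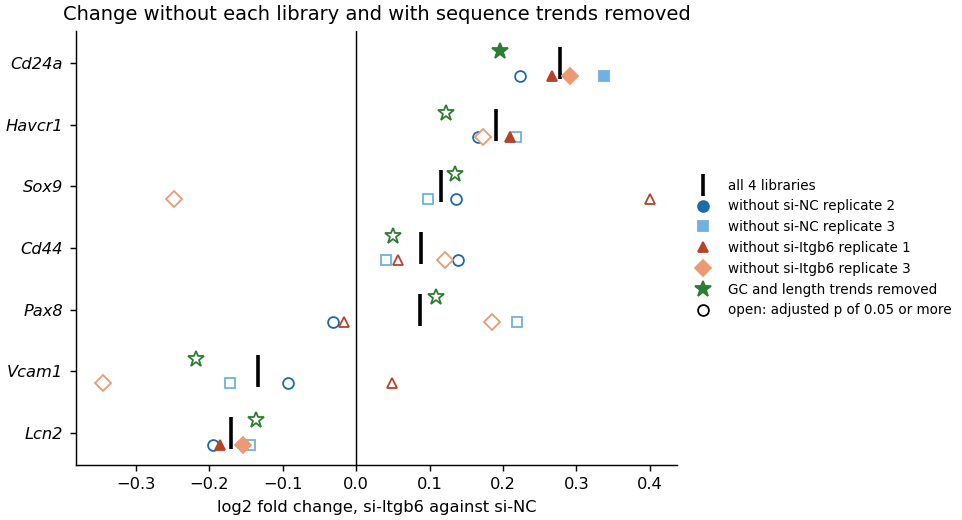
log2 fold change of each tested marker with all 4 libraries (bar), without each library in turn and with GC and length trends removed, with open symbols where the adjusted p was 0.05 or more. Lcn2, Havcr1 and Cd24a keep their sign in every setting shown, while Pax8, Sox9 and Vcam1 cross 0.

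In the lists around the markers, few genes passed in either direction, and their counts stand beside the 2.11% of all genes tested that were higher and the 2.52% that were lower. Of the injury and failed repair genes, 19 were tested, and *Havcr1* rose and *Lcn2* fell while 17 did not pass, with a median log2 fold change of 0.00 beside 0.00 for all genes tested. *Spp1* and *Cdkn1a* had -0.01 and 0.04. Of the progenitor and dedifferentiation genes, 16 were tested and 2 rose, *Cd24a* and *Prom1*, with a median of 0.09. *Prom1*, a pentaspan membrane protein, had 10921 and 12311 counts in si-NC and 12147 and 13020 in si-*Itgb6*, and a log2 fold change of 0.19 (edgeR adjusted p = 0.0164).

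Mature proximal tubule genes, although few were detected, gave 2 higher calls among 13 tested, with a median of -0.09. *Aqp1* had 387 and 477 counts in si-NC and 601 and 633 in si-*Itgb6*, or 25.7 ± 2.75 against 38.6 ± 0.269 CPM (SD, n = 2 each), a log2 fold change of 0.59 and an edgeR adjusted p of 0.000617. *Mme* rose by 0.35 on the log2 scale (edgeR adjusted p = 0.00585), from 57.3 ± 0.178 to 72.8 ± 2.05 CPM. Both are brush border proteins of the proximal tubule that other cells also express. Among the renal transcription factors, *Mecom*, a zinc finger factor, rose by 0.48 (edgeR adjusted p = 0.0365) and was the 1 call of 14 tested, with a median of 0.07.

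NF-kB and acute phase targets, the list that *Lcn2* belongs to besides injury, had 22 genes tested, of which 2 were lower and 0 higher with edgeR's quasi-likelihood test or DESeq2 and 10 had a positive log2 fold change, with a median of -0.11. *Cebpb* fell from 99.1 ± 0.822 to 66.8 ± 8.81 CPM, a log2 fold change of -0.57 (edgeR adjusted p = 3.2e-05). With GC and length trends removed its value was -0.36 and still passed (adjusted p = 0.0120). The abundant members *C3* and *Nfkbia* did not pass. The chemokine genes *Cxcl1* and *Ccl20*, singled out after their values were seen, had 0.31 and 0.28 (edgeR adjusted p = 0.0578 and 0.0595). Under the study's thresholds they were the 2 higher genes of the list, and *Cebpb* was the 1 lower. Of all genes tested, 4.37% were higher and 5.2% lower under those thresholds. *Cxcl1* and *Ccl20* both passed with edgeR's exact and likelihood ratio tests and with either other filter on low counts. Neither passed once GC and length trends were removed (0.24 and 0.13, edgeR adjusted p = 0.206 and 0.483). They also missed under RLE factors, under scaling by library size alone and in DESeq2. Leaving out si-*Itgb6* replicate 3 gave the lowest values, 0.14 for *Cxcl1* and 0.21 for *Ccl20*. Leaving out si-*Itgb6* replicate 1 gave the highest, 0.45 and 0.35. Ligands, receptors and shedding enzymes of the surface markers had 1 lower call of 17 tested, *Msn* (moesin, which links CD44 to actin), at -0.18 (edgeR adjusted p = 0.0335), with a median of 0.01. Markers of other nephron segments (6 tested) and of stromal, endothelial and immune cells (5 tested) had medians of 0.22 and -0.15. Both lists gave 0 calls at an adjusted p under 0.05 with edgeR's quasi-likelihood test or DESeq2. Under the study's thresholds *Aqp3* of the first list was called higher, as were 4.37% of all genes tested, and the second list gave 0 calls. *Col1a1*, at 0, 1, 22 and 2 counts, was not among the tested genes and was called higher in edgeR fits with no filter on low counts and without si-*Itgb6* replicate 3.

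Of these list genes outside the 9 markers, *Cebpb* alone passed in every setting tried. Without si-NC replicate 2 the values were 0.14 for *Prom1* (adjusted p = 0.520), 0.48 for *Aqp1* (0.148), 0.35 for *Mme* (0.218), 0.31 for *Mecom* (0.578) and -0.13 for *Msn* (0.599). Without si-NC replicate 3, *Prom1*, *Mme* and *Msn* also missed, at 0.24, 0.35 and -0.23 (0.0789, 0.0896 and 0.0953). *Mecom* missed without si-*Itgb6* replicate 1 (0.41, 0.118), with library size only (0.46, 0.0616) and with GC and length trends removed (0.45, 0.0883), and DESeq2 gave it no adjusted p. *Mme* was 0.22 with GC and length trends removed (0.150).

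The gene nearest to each marker in level, by the Euclidean distance of 4 log2 FPKM values over the 4 libraries, was *Hspb1* for *Lcn2* (0.137), *Ssb* for *Havcr1* (0.102), *mt-Nd5* for *Cd24a* (0.0811) and *Qars* for *Pax8* (0.141). It was *Gfpt1* for *Cd44* (0.0685), *Pcmtd1* for *Vcam1* (0.0898) and *Ccdc126* for *Sox9* (0.219). *Hspb1* was lower in si-*Itgb6* by more than *Lcn2*, at -0.28 (edgeR adjusted p = 0.000869). *mt-Nd5* was higher at 0.24 (0.00432), and *Ssb* did not pass at 0.18 (0.0595). The 4 values hold the difference between the groups, so a neighbour tends to share its marker's direction and is no independent support.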

How the data were processed

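Polyadenylated RNA of TKPTS cells was sequenced in pairs without strand information. The authors deposited estimated counts per gene, not normalized, and FPKM values; the aligner, counter, genome build and annotation are not given in the sources used here. The study's text says that samples were optimized after clustering. The 9 markers and the gene lists were chosen with earlier results of these data known.

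Estimated counts were rounded, filtered with filterByExpr (minimum count 10, minimum total count 15) and scaled by TMM factors. Groups were compared in R 4.3.3 by edgeR 4.0.16 (quasi-likelihood F test), and p-values of the 11727 genes tested were adjusted by Benjamini-Hochberg, with 0.05 as the threshold. CPM values are normalized, SDs are over libraries, and FPKM values served only for levels. Named genes were the markers, *Itgb6*, the nearest gene in level to each marker, the 2 lower and 2 higher called genes with the largest change and the 3 most abundant genes of each list, and list members at 0. *Lrp2*, *Alb*, *Aqp3*, *Cxcl1*, *Ccl20*, *Vim*, *Krt20*, *Col1a1* and the epithelial genes were named besides. Some genes that this rule takes are not reported here. The totals, 15435074 to 17220281 counts, limit the genes with few counts; the common biological coefficient of variation was 0.0551.

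Counts were also simulated for si-*Itgb6* against si-NC (11715 genes tested, 50 changed at each size). The test recovered 26% of genes changed 1.2-fold, 88% at 1.5-fold, 94% at 2-fold and 100% at 3-fold, and called 13 unchanged genes. Every simulated gene had 1 common dispersion, with no GC effect and no library effect beyond the total count. These shares need not hold for the real libraries. Locations, lengths and GC content (known for 11709 tested genes) came from GENCODE vM21 (GRCm38) and promoters from RefSeq (GRCm38.p6), which may not be the authors' annotation. Alternatives were edgeR's exact and likelihood ratio tests, DESeq2 1.42.0, RLE factors, library size only, other filters, removal of GC and length trends by lowess offsets, the study's thresholds, CPM per length, and leaving out each library.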

Additional observations from a re-analysis of the deposited data

How the results depend on the processing

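Genes called lower numbered 295, and 156 with DESeq2, 104 with GC and length trends removed, 610 under the study's thresholds and 6 to 413 without 1 library; genes called higher numbered 247, and 146, 111, 512 and 7 to 368. The smallest counts came without si-NC replicate 2, and without si-NC replicate 3 they were 114 and 108; fewer libraries were then tested, and the lone one of its group was assumed to vary like the other group. Of the markers, 1 was called lower, and 0 with GC and length trends removed or under the study's thresholds and 0 to 1 without 1 library; 2 were called higher, and 1, 1 and 0 to 2. *Havcr1* went to 0.12 and *Lcn2* to -0.14 with GC and length trends removed, both missing the threshold; the cause was not tested. Without 1 library *Havcr1* ranged from 0.17 to 0.22, *Lcn2* from -0.19 to -0.14, *Cd24a* from 0.22 to 0.34, *Pax8* from -0.032 to 0.22, *Sox9* from -0.25 to 0.40, *Vcam1* from -0.34 to 0.048 and *Itgb6* from -0.10 to 0.091. By CPM per kilobase of the longest transcript, the levels of *Lcn2*, *Pax8*, *Cd44* and *Vcam1* became 448, 95.6, 13.0 and 2.79. The exact and likelihood ratio tests, RLE factors, library size only and both other filters kept all 3 marker calls; DESeq2 did too, but gave no adjusted p for *Sox9*, *Vcam1* and *Itgb6*. No paired analysis was possible because the groups share only replicate number 3.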

Other observations

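Si-*Itgb6* replicate 1 held small counts of genes better known from other tissues that the other 3 libraries nearly lacked, picked after their values had been seen. *Alb*, the serum albumin gene, had 53 counts there and 1, 0 and 0 in si-NC replicates 2 and 3 and si-*Itgb6* replicate 3. The fibrinogen chain *Fgg*, which the injury and failed repair list also holds, had 10 counts against 0 in all the others. The macrophage lysozyme *Lyz2* had 11 against 0. The collagen genes *Col1a1* and *Col1a2* had 22 and 11 counts there, against 0 to 2 and 0 elsewhere. Not every such gene was limited to that library, since the apolipoprotein gene *Apoa1* had 4 counts there and 3 in si-NC replicate 3, and 0 in the other two.

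From the injury list, *Vim* and *Krt20* are described here, picked after their values were seen. *Vim* encodes the intermediate filament vimentin and is often used to mark dedifferentiated tubular cells. Its level was low, at 0.338 to 0.765 FPKM. It had 12 and 12 counts in si-NC and 18 and 28 in si-*Itgb6*. It differed by 1.00 on the log2 scale (standard error 0.51), with an edgeR adjusted p of 0.289. *Krt20*, a keratin linked to tubular injury, was abundant at 75.5 FPKM, with a log2 fold change of 0.14 and an edgeR adjusted p of 0.205.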
